A study of Danio rerio with 32 samples.

Results

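The genes described here are 72 zebrafish splicing factor genes among the 32519 genes counted at 12 hpf (hours post fertilization). Of these, 70 were chosen by symbol: every gene whose symbol starts with snrp, sf3a, sf3b, prpf, srsf or u2af, or with lsm followed by a digit. The other 2 share the symbol PRP4K and were added to the PRPF group under their zebrafish name, prpf4b. By the start of the symbol, 29 of the 72 were placed in the snRNP core group (snrp and lsm) and 12 in SF3 and U2 (sf3a, sf3b and u2af). The PRPF group has 13 and the SR proteins (srsf) 18. These groups are labels by symbol, and the snRNP core group also holds proteins of single snRNPs and LSm proteins outside the core. The study asked what gain and loss of Adar, the zebrafish orthologue of the mammalian A-to-I RNA editing enzyme ADAR1, does to the embryo. All embryos were whole embryos of the strain labeled WT (ABTL), and no group carried a mutant allele. Controls were uninjected, Adar knockdown (KD) embryos received 1 ng of a translation-blocking adar morpholino (MO) at the 1-cell stage, and Adar overexpression (OE) embryos received 50 pg of adar mRNA. Each group had 3 libraries at 12 hpf, each from 20 pooled embryos, and by the study's methods all came from the offspring of 1 further mating pair, so the p-values measure the spread between pools rather than between families. Since controls were not injected, the injection itself and the injected agent cannot be told apart.

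Introns are removed by the spliceosome, which assembles on each pre-mRNA from small nuclear ribonucleoproteins (snRNPs). A ring of Sm proteins, or for U6 of LSm proteins, sits on each snRNA and forms the core of the particle. U2AF recognizes the end of the intron, the SF3A and SF3B complexes of the U2 snRNP grip the branch point, and the PRPF proteins, named after yeast pre-mRNA processing mutants, join with the tri-snRNP, build the catalytic center and drive its rearrangements. SR proteins bind exons through RNA recognition motifs and recruit the spliceosome through domains rich in arginine and serine. These roles are best known from yeast and human cells. The factors act in every cell type, and maternal mRNA and protein supply the early embryo before its own genome is transcribed.

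The values are whole reads per gene and library, recovered from the deposited mean normalized counts and divided by the authors' size factors, here called normalized reads. Reads could be recovered for 32490 of the 32519 genes, including all 72 splicing factor genes. Libraries of a group are called A, B and C in order of falling size factor, and 3 values in a row always follow that order, because the deposited means do not tell which library carries which replicate number. Each library held between 529553 and 956733 reads on genes. Between 97.1% and 97.3% of normalized reads fell into classes outside genes, and 88.8% to 89.5% on no annotated feature. The library kit preserves strand, but the strand setting of the counting at 12 hpf is not given in the sources used here, so reads of a gene and of an antisense transcript cannot be told apart. Over 13565 genes with reads in all 9 libraries, each library correlated best with one of its own label, but adar itself did not follow its labels in each library. It was at 325, 78.7 and 83.4 normalized reads in the libraries labeled control, 133, 101 and 89.9 in those labeled KD, and 327, 58.1 and 373 in those labeled OE. Control A was thus as high as OE A, and OE B was below every control. A translation-blocking MO need not lower its target mRNA, and adar passed the test in no comparison (limma, adjusted p = 0.729 in KD, 0.5 in OE and 0.146 in OE against KD). Counts that rest on the OE libraries are therefore also given without control A and OE B, a choice made after the values were seen.

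Of the 72 genes, 63 reached a mean of 10 normalized reads and were tested against control; the other 9 (the 2 LSM10 genes, the 2 LSM2 genes, SNRPD3, SRSF7, lsm1, lsm14b and srsf3a) stayed at or below 12.02 normalized reads in every library. One LSM2 gene had no read in any library. The other was at 1.83, 0 and 3.09 in control and 0.73, 8.41 and 3.42 in KD. In OE it was at 11.5, 11.6 and 12.02, above every control. One of the LSM10 genes had no read in control and was at 2.19, 5.04 and 3.42 in KD. The remaining untested genes overlapped or equalled control in both injected groups. Untested genes do not enter the counts of calls below. The tested genes had between 102 and 3145 reads over the 9 libraries, with a median of 646. At this depth the standard error of their log2 fold changes was between 0.20 and 0.77, which limits how small a difference could be detected.

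As a whole, splicing factor genes took a smaller share of the reads on genes in both injected groups. They held 0.984%, 0.987% and 1.11% of the reads in control, 0.791%, 0.578% and 0.740% in KD, and 0.601%, 0.625% and 0.534% in OE. Each control share was above each KD and OE share, and the KD and OE ranges overlapped. The widest 95% Wilson interval of a control library ran from 1.09% to 1.14%, and all such intervals cover counting error only. The shares were not set against those of other genes at the same read level. In the range starting at 100 normalized reads, median log2 fold changes were -0.38 in KD and -0.82 in OE over all genes. Splicing factor genes in that range had medians of -0.78 and -1.13. Over genes tested at any read level the medians were -0.08 and -0.14. How much of the smaller share is particular to splicing factor genes was not tested. In pools of whole embryos, fewer cells with a transcript and less of it in each cell cannot be told apart.

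**Figure D1:**
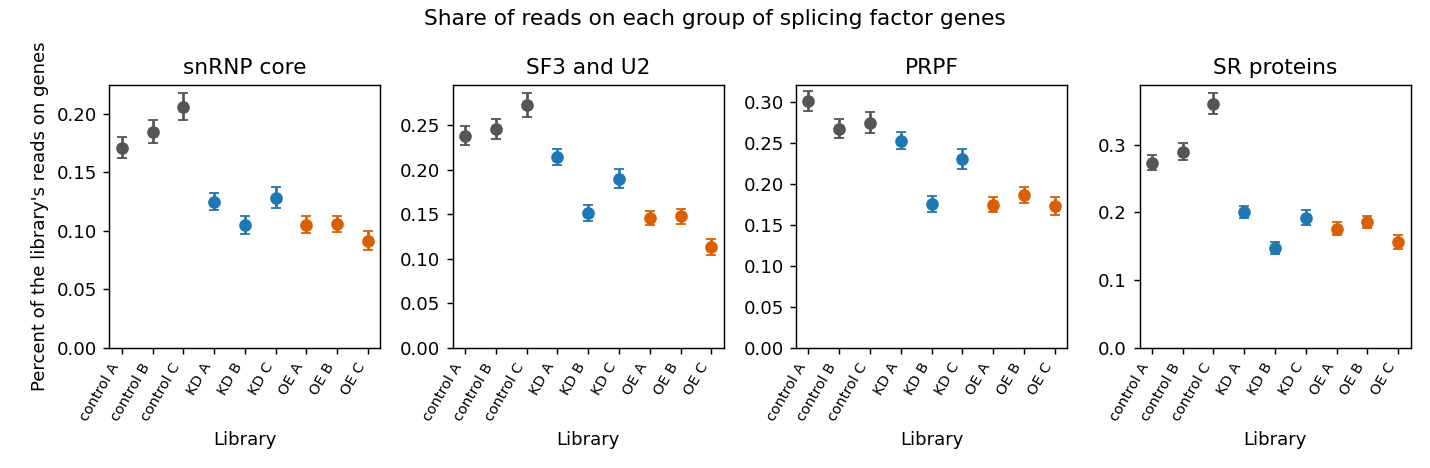
Percent of each library's reads on genes that fell on the 4 groups of splicing factor genes (y axis), for the 9 libraries at 12 hpf (x axis; gray control, blue KD, orange OE); points are libraries and bars are 95% Wilson intervals. SR proteins took 0.274% to 0.361% in control, 0.147% to 0.20% in KD and 0.156% to 0.186% in OE. Other genes of similar read level are not shown.

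In KD embryos 14 of the 63 tested splicing factor genes fell and none rose by limma with voom weights at an adjusted p under 0.05. Over all 9762 genes tested, 4.67% were called lower and 1.54% higher in the same fit. At an unadjusted p under 0.05 it was 31 splicing factor genes lower and 1 higher, against 2099 of all genes in either direction. With an intensity trend, limma called 10 splicing factor genes lower and none higher, against 404 lower and 213 higher over all genes. The median log2 fold change was -0.79 over the splicing factor genes and -0.08 over all genes. KD fold changes went with read level in all genes. At a mean of 100 to 300 normalized reads, 13.4% of all genes and 5 of 24 splicing factor genes were called lower, with medians of -0.38 and -0.78. At 30 to 100 it was 6.53% and 7 of 25, with medians of -0.20 and -0.80. At 10 to 30 it was 0.73% and 1 of 12, with medians of 0.13 and -0.79. The background at the read level of most splicing factor genes was thus nearer to them than that of all genes. In 34 of the 63 every KD library was below every control library, against 16.3% of all genes, and 1 gene, prpf18, showed the opposite order, against 12%. Calls spread over the groups with 6 of 22 tested snRNP core genes, 1 of 12 SF3 and U2 genes, 2 of 13 PRPF genes and 5 of 16 SR proteins. Over all genes, 456 were called lower with all libraries. Without control A, B and C in turn this was 373, 191 and 326, and without KD A, B and C it was 200, 213 and 382. For splicing factor genes the count was 8, 6, 5, 6, 3 and 9 in the same order. It was 9 lower and 1 higher after cyclic loess normalization, which removes trends of fold change with read level, where 3.3% and 3.28% of all genes were called. With scaling by total reads it was 6 lower and 1 higher, against 2.9% and 2.06%; in both settings the gene called higher was prpf18.

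In OE embryos 49 of 63 fell and none rose, against 18.3% of 10863 genes called lower and 12.6% called higher (limma; 52 lower and 0 higher at an unadjusted p under 0.05, and 47 lower and 0 higher with an intensity trend). Over all genes, 4748 had an unadjusted p under 0.05 in either direction, and the fit with an intensity trend called 1878 lower and 1551 higher. The median log2 fold change of the splicing factor genes was -1.11, against -0.14 over all genes, and all 63 estimates were below 0. No OE library reached any control library in 53 of the 63 genes, against 26.7% of all genes. By group, 18 of 22 snRNP core genes, 10 of 12 SF3 and U2 genes, 11 of 13 PRPF genes and 10 of 16 SR proteins fell. Without control A and OE B the count was 39, and without OE A alone it was 30. Over all genes these fits called 1357 of 10974 and 909 of 10415 lower. OE fold changes went with read level in all genes: of the 929 genes with a mean of 100 to 300 normalized reads 61.6% were called lower, with a median of -0.82, and in that range 22 of 23 splicing factor genes were called, with a median of -1.13. Among 3301 genes with a mean of 30 to 100, 29.5% of all genes and 18 of 23 splicing factor genes fell, with medians of -0.47 and -1.08. Among 6324 genes with a mean of 10 to 30, 4.02% of all genes and 7 of 15 splicing factor genes fell, with medians of 0.35 and -1.06. In that range 18.6% of all genes and 0 splicing factor genes were called higher. After cyclic loess normalization 12 of the 63 were called lower, 11 of them among the 49, against 4.52% of all genes called lower and 5.69% higher, and the median was -0.64. The 11 were snrpa, snrpb, snrpb2, snrpd1, snrpd3l, lsm3, lsm5, lsm6, sf3a3, sf3b3 and SRSF3, so no PRPF gene kept its OE call in that setting.

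The same 3 control libraries entered both comparisons, so their fold changes are set side by side rather than compared. Control C was the highest of the 3 control libraries in 45 of the 63 tested genes and had the smallest size factor. The fits without it called 5 splicing factor genes in KD and 44 in OE. Over all genes these fits called 326 of 9945 lower in KD and 2081 of 11382 in OE. The direct comparison of OE with KD, which shares no library with the controls, called 9 of 61 tested genes lower in OE and none higher, against 9.2% and 6.46% of 11834 genes (limma; 13 lower and 2 higher at an unadjusted p under 0.05, and 9 lower and 0 higher with an intensity trend). Over all genes, 3948 had an unadjusted p under 0.05 in either direction, and the fit with an intensity trend called 1069 lower and 905 higher. The median of the splicing factor genes was -0.26 against 0.05 over all genes. Without overlap, 15 of them were lower in OE (17.7% of all genes) and 3 higher (18.5%). Against all genes, the lower counts are somewhat above the background, and the higher counts are below it. Lower calls also went with read level. At a mean of 30 to 100 normalized reads, 17.4% of all genes and 4 of 28 splicing factor genes were called lower. At 100 to 300 it was 27.3% and 3 of 14, and at 10 to 30 it was 2.65% and 2 of 19. In the same order the medians were -0.23 and -0.20, -0.42 and -0.36, and 0.29 and -0.53. Lower calls thus exceeded the share at their read level only at 10 to 30. After loess normalization 7 splicing factor genes were called lower and 3 higher, against 8.25% and 6.84%. Without KD A, B and C in turn, 3, 20 and 4 genes were called lower, and without OE A, B and C 2, 5 and 6. Over all genes, 598, 2112 and 714 were called lower without KD A, B and C. Without OE A, B and C it was 431, 571 and 682. No splicing factor gene was called higher in these fits, except srsf4 without KD B.

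**Figure D2:**
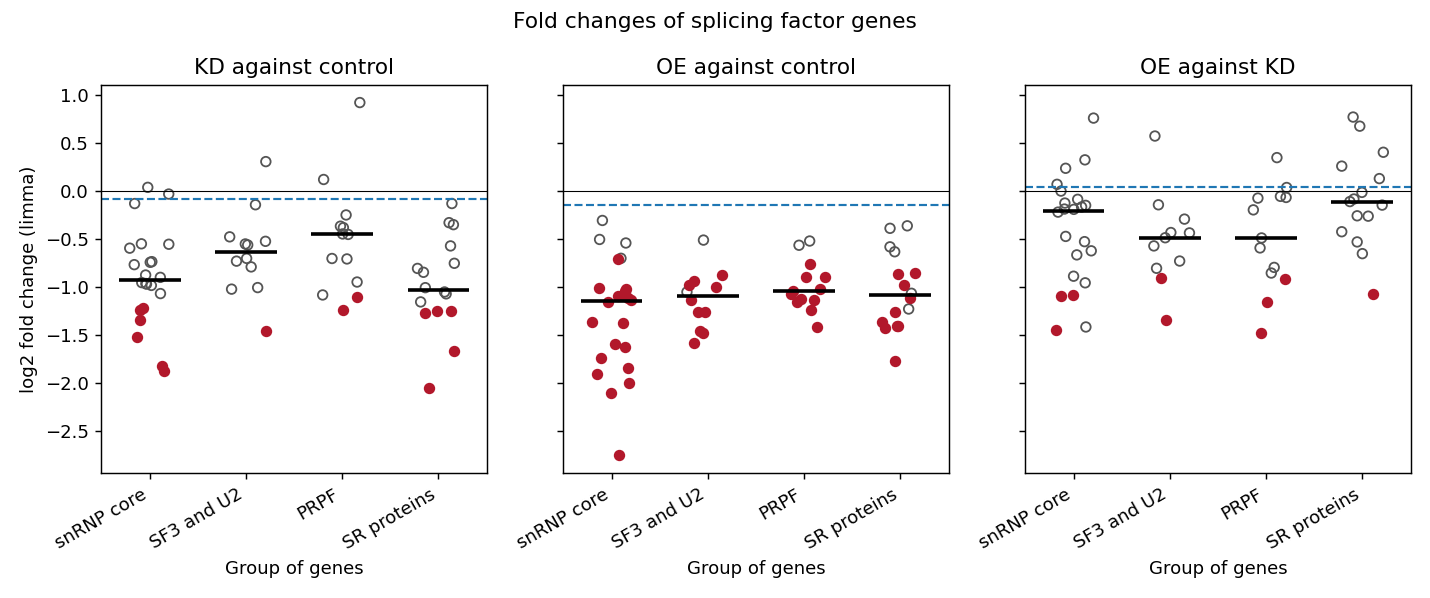
log2 fold change of each tested splicing factor gene (y axis) by group (x axis) in the 3 comparisons at 12 hpf; filled red points passed an adjusted p under 0.05 (limma), open points did not, black bars are group medians and the dashed blue line is the median of all genes tested. In OE against control all points lie below 0 and 49 of 63 are filled, against 14 of 63 in KD.

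**Figure D3:**
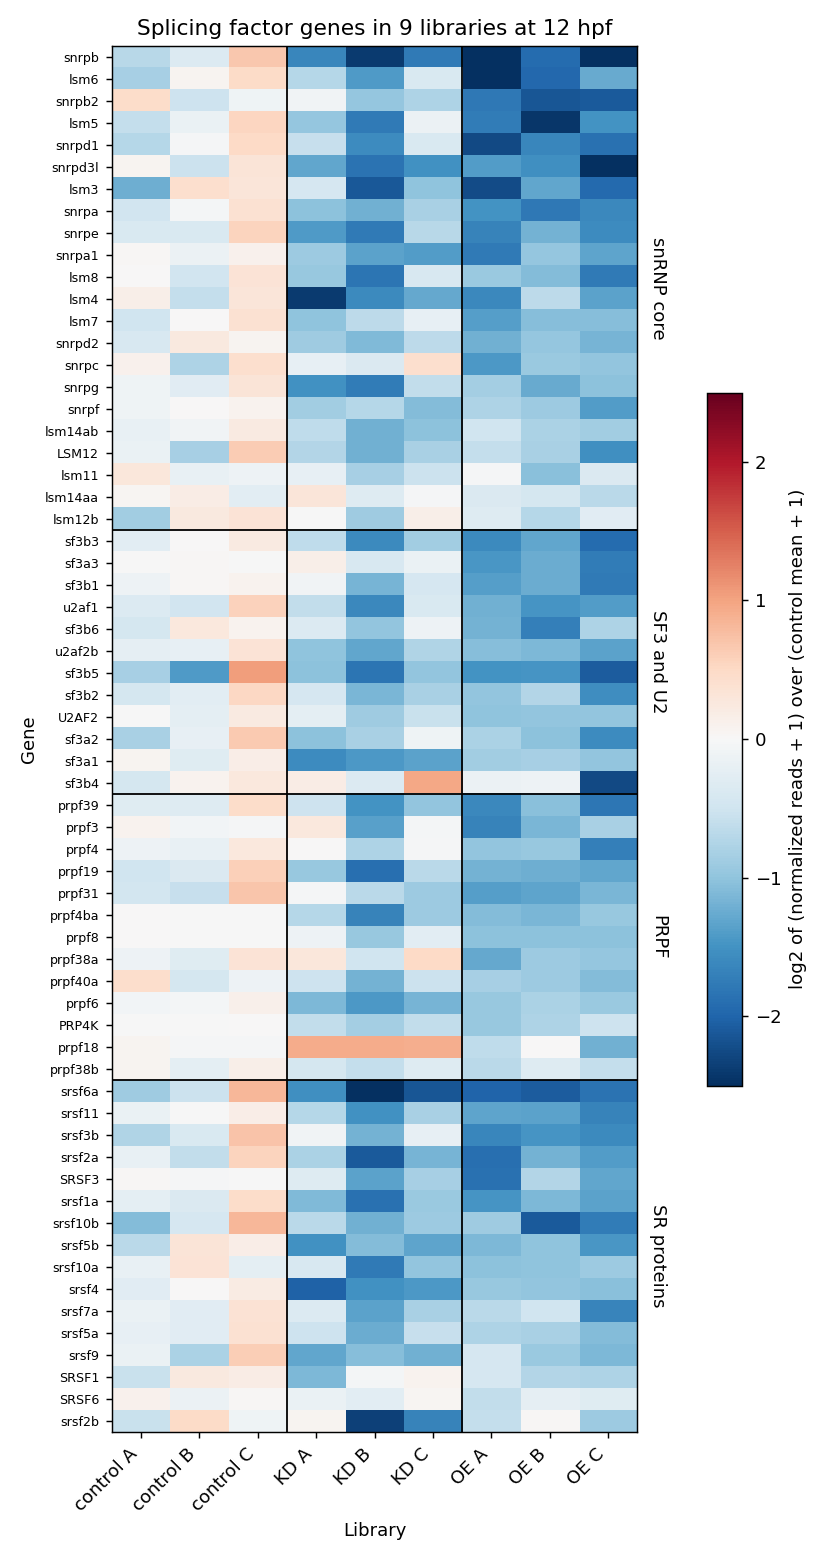
Color gives log2 of (normalized reads + 1) over (control mean + 1) for each of the 63 tested genes (rows, by group) in each of the 9 libraries (columns), with blue below and red above the control mean and colors saturating at 2.5. Most rows turn blue in KD and OE, while prpf18 is red in the 3 KD libraries, and KD B and control C stand at the low and high end of their groups in many rows.

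Among the Sm proteins, snrpb, which encodes SmB of the core ring, fell most. It was at 53.96, 69.5 and 141 normalized reads in control, 27.7, 15.97 and 25.05 in KD and 11.5, 22.5 and 2.40 in OE, with neither injected group overlapping control. Its log2 fold change was -1.82 ± 0.40 (SE) in KD (limma, adjusted p = 0.0101) and -2.75 ± 0.57 in OE (adjusted p = 0.00292). OE C held only 2 raw reads of snrpb, so the size of that fall is poorly fixed, and the OE call was lost when only genes with a mean of at least 50 were tested, with an adjusted p of 0.15. The other ring members moved the same way in OE: snrpd1, snrpd2, snrpd3l, snrpe, snrpf and snrpg, which complete the ring with SmB, were all called lower. Their OE log2 fold changes ran from -1.84 for snrpd1 to -1.01 for snrpf and -1.01 for snrpg. In KD snrpd3l (-1.52, adjusted p = 0.0237), snrpe (-1.24, adjusted p = 0.0423) and snrpg (-1.34, adjusted p = 0.0457) fell with snrpb by limma, and snrpd1, snrpd2 and snrpf did not pass. The KD calls of snrpe and snrpg were lost after loess normalization (limma, adjusted p = 0.0883 and 0.0781).

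snrpd1 separated OE from KD as well. It was at 97.9, 157 and 229 normalized reads in control, 107, 53.8 and 123 in KD and 32.9, 51.1 and 43.3 in OE. KD overlapped control while OE lay below both, and OE against KD gave -1.09 ± 0.31 (limma, adjusted p = 0.0173).

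Among proteins specific to 1 snRNP, snrpb2, a protein of the U2 snRNP that binds its RNA, was at 75.9, 37.8 and 50.95 in control, 51.8, 27.7 and 31.9 in KD and 15.3, 11.6 and 12.02 in OE. Only the OE libraries stood apart, with -1.997 ± 0.39 against control (limma, adjusted p = 0.0022) and -1.45 ± 0.41 against KD (adjusted p = 0.0159). snrpa1, which encodes its partner in the U2 snRNP, was at 90.5, 79.8 and 95.7 in control, 46.7, 34.5 and 33.02 in KD and 25.2, 44.9 and 34.8 in OE. It fell in both, with log2 fold changes of -1.21 ± 0.31 in KD (limma, adjusted p = 0.0262) and -1.36 ± 0.28 in OE (adjusted p = 0.00267). Of the U1 proteins, snrpc kept its KD level near control, at 33.6, 30.3 and 52.4 against 42.1, 22.5 and 52.5, and stood at 13.8, 20.1 and 19.2 in OE (OE against KD -1.08 ± 0.36, limma, adjusted p = 0.04). snrpa was at 64.9, 87.9 and 119 in control, 43.8, 38.7 and 51.2 in KD and 31.4, 25.6 and 28.8 in OE. Every KD library was below every control library and every OE library below every KD library, but only OE against control passed (limma, -1.59 ± 0.30, adjusted p = 0.00185; KD -0.98 ± 0.32, adjusted p = 0.0776).

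LSm genes had few reads. lsm4, a member of the LSm ring of U6, was at 38.4, 22.5 and 43.2 normalized reads in control, 5.84, 10.9 and 13.7 in KD and 10.7, 21.7 and 13.2 in OE, lower in both without overlap (limma, KD -1.87 ± 0.51, adjusted p = 0.034; OE -1.14 ± 0.40, adjusted p = 0.0374). lsm6, from the same ring, was at 18.3, 34.8 and 46.3 in control, 19.7, 11.8 and 25.05 in KD and 3.82, 7.74 and 13.2 in OE. It passed in OE (limma, -2.09 ± 0.57, adjusted p = 0.0116), as did lsm3, lsm5, lsm7 and lsm8, and not in KD (-0.73 ± 0.44, adjusted p = 0.34). The LSM2 gene with reads was not tested and was above control in OE, as given above. Other LSm genes lie outside the ring of U6. lsm11, of the U7 particle that processes histone mRNA, LSM12 and lsm12b passed in neither comparison. lsm14ab, whose human counterpart represses translation in cytoplasmic granules, had the most reads of the snRNP core group as defined by symbol (not corrected for length). It was at 155, 167 and 207 in control, 112, 75.7 and 85.4 in KD and 124, 101 and 96.1 in OE. It passed in OE (limma, -0.70 ± 0.23, adjusted p = 0.0281), where its paralog lsm14aa, at 48.5, 53.2 and 38.6 in control, 57.7, 36.99 and 45.5 in KD and 35.95, 34.1 and 28.8 in OE, did not (-0.50 ± 0.28, adjusted p = 0.18). The difference between the paralogs was not tested, and the OE lsm14ab estimate turned to 0.0489 after loess normalization. The OE call of lsm14ab was also lost with total scaling (limma, adjusted p = 0.196) and without control A and OE B together (0.103). Leaving out control B, OE A, OE B or OE C in turn lost it too (limma, adjusted p = 0.0623, 0.0583, 0.0971 and 0.0875).

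In the SF3A complex, whose 3 subunits work as 1 unit of the U2 snRNP, the subunits gave different values in KD, a difference that was not itself tested. sf3a1 was at 129.9, 100.2 and 139 in control, 40.9, 44.6 and 47.8 in KD and 67.3, 68.9 and 61.3 in OE. Its lowest level was in KD, OE was between, and no group overlapped another. The fall was -1.45 ± 0.30 in KD (limma, adjusted p = 0.00775) and -0.87 ± 0.24 in OE (adjusted p = 0.0123), and OE was above KD by 0.58 ± 0.28, which did not pass (adjusted p = 0.142) except after loess normalization (0.85, adjusted p = 0.0331). The OE call of sf3a1 was lost after loess normalization (-0.19, adjusted p = 0.593) and with total scaling (-0.54, adjusted p = 0.081). That call was also lost without OE A (limma, adjusted p = 0.0547) and without control A and OE B together (0.0778). sf3a3 was at 224, 229 and 222 in control, 250.5, 169.8 and 200.4 in KD and 81.1, 95.3 and 66.1 in OE. Here KD overlapped control and OE was far below both (limma, OE against control -1.48 ± 0.23, adjusted p = 0.000775; OE against KD -1.34 ± 0.26, adjusted p = 0.000733). Expressed within each library, sf3a3 had 1.73, 2.29 and 1.60 reads per sf3a1 read in control, 6.12, 3.81 and 4.19 in KD and 1.205, 1.38 and 1.08 in OE. This ratio does not depend on scaling, and its 3 groups did not overlap, with KD highest and OE lowest; the pair was chosen after its values were seen, so no test is given. sf3a2 was at 51.2, 78.7 and 144 in control, 44.5, 51.3 and 84.2 in KD and 52.02, 44.1 and 30.04 in OE and passed in OE alone (limma, adjusted p = 0.0452), where OE A overlapped the controls.

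Of the 6 SF3B genes, 4 fell in OE. sf3b3 was at 249, 301 and 352 in control, 194, 98.4 and 165 in KD and 98.7, 122 and 78.1 in OE, an OE log2 fold change of -1.58 ± 0.24 (limma, adjusted p = 0.000738). In KD it was also below every control, without passing (-1.02 ± 0.32, adjusted p = 0.0598). sf3b1, the subunit that clamps the branch point and is often mutated in human leukemias, had the most reads of the group (not corrected for length), at 257, 286 and 299.5 in control, 265, 124 and 208 in KD and 108, 118 and 81.7 in OE. KD A lay within the control range and KD B far below it, while every OE library was below every KD library (limma, OE against control -1.45 ± 0.23, adjusted p = 0.000802; OE against KD -0.90 ± 0.28, adjusted p = 0.0279). sf3b2 and sf3b6 were called lower in OE too, and sf3b4 and sf3b5, with means of 15.3 and 23.5 normalized reads in control, were not. After loess normalization sf3b3 kept its OE call (limma, adjusted p = 0.0328). The OE calls of sf3b1 (limma, adjusted p = 0.0529), sf3b2 (0.548) and sf3b6 (0.0747) were lost in that setting. The U2AF genes, which encode the subunits that read the polypyrimidine tract and the terminal AG, were lower in OE in all 3 cases (u2af1 -1.26, u2af2b -1.13 and U2AF2 -0.97 on the log2 scale). None of the 3 kept this call after loess normalization (limma, adjusted p = 0.174 for u2af1, 0.224 for u2af2b and 0.535 for U2AF2). In KD none of them passed (limma, adjusted p = 0.0549 for u2af2b, 0.213 for u2af1 and 0.294 for U2AF2).

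**Figure D4:**
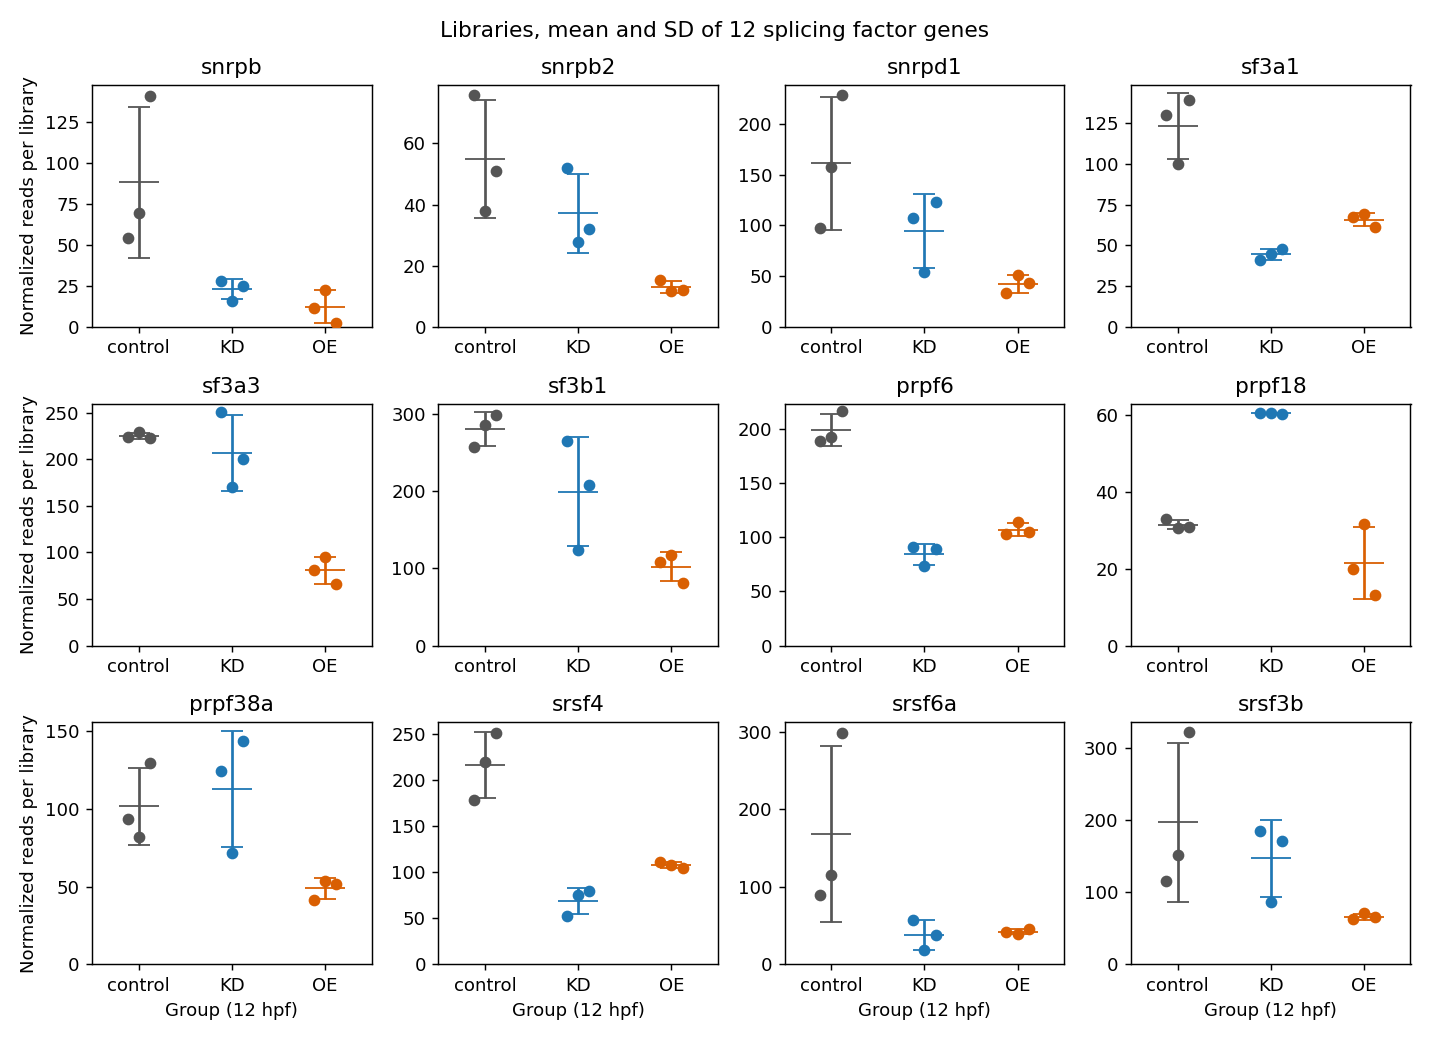
Normalized reads (y axis, from 0) of 12 splicing factor genes in control, KD and OE embryos at 12 hpf; points are libraries A, B and C from left to right, the horizontal mark is the mean and bars are 1 SD (n = 3). sf3a1, prpf6 and srsf4 are lowest in KD, sf3a3, snrpd1 and srsf3b are lowest in OE, and prpf18 is highest in KD.

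The PRPF group held the widest range in KD. prpf18, a factor of the second catalytic step, was at 32.9, 30.7 and 30.9 in control, 60.6, 60.5 and 60.3 in KD and 19.9, 31.8 and 13.2 in OE. The KD libraries were above all others and lay close together, from 83, 72 and 53 raw reads. The counting error of such reads is larger than that spread, so the closeness does not measure precision. The KD difference of 0.92 ± 0.32 did not pass (limma, adjusted p = 0.0954), though it did after loess normalization (1.11, adjusted p = 0.0359) and with total scaling (1.14, adjusted p = 0.0451). OE against KD gave -1.48 ± 0.34 (limma, adjusted p = 0.00315), a call kept in each fit that left out 1 library. prpf18 rested on 11 to 83 raw reads in a library.

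prpf6, which bridges U5 and U4/U6 in the tri-snRNP, went the other way. It was at 188, 192 and 216 in control, 90.5, 73.1 and 88.8 in KD and 103, 114 and 105 in OE, with KD lowest and no overlap between groups (limma, KD -1.24 ± 0.29, adjusted p = 0.0148; OE -0.89 ± 0.22, adjusted p = 0.00688; OE against KD 0.35 ± 0.26, adjusted p = 0.342). prpf4ba, a kinase of the PRP4 type, was the second PRPF gene called in KD, at 141, 139 and 137 in control, 84.7, 42.9 and 74.00 in KD and 65.02, 62.7 and 72.1 in OE. Its control values lay closer together than their counting error. Its fall was -1.10 ± 0.32 in KD (limma, adjusted p = 0.0437) and -1.07 ± 0.23 in OE (adjusted p = 0.00328). The KD call was lost when any 1 library was left out. PRP4K, a second gene of this name, was at 171, 171 and 173 in control, 111, 94.1 and 112 in KD and 87.97, 99.9 and 120.2 in OE and passed in OE alone.

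Further PRPF genes fell in OE and did not pass in KD. prpf3, a U4/U6 protein, was at 155, 139 and 142 in control, 175, 56.3 and 141 in KD and 45.1, 65.1 and 82.9 in OE; KD B alone was low in KD, and the OE log2 fold change was -1.24 ± 0.25 (limma, adjusted p = 0.00274). prpf8, the scaffold of the catalytic center, had the most reads of the group (not corrected for length), with 455, 446 and 446 in control, 413, 233 and 373 in KD and 219.6, 219 and 219 in OE. After scaling, the 3 OE libraries lay within 1 normalized read of each other, from 287, 283 and 182 raw reads. Counting error is larger than that spread here too. OE gave -1.03 ± 0.20 (limma, adjusted p = 0.0022), and KD did not pass (-0.44 ± 0.30, adjusted p = 0.399). prpf39, a U1-associated protein, had the largest OE fall of the group, from 136, 134 and 232 in control to 54.3, 80.5 and 46.9 (limma, -1.41 ± 0.28, adjusted p = 0.00237), with 117, 58.8 and 84.2 in KD.

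prpf38a, which enters with the precatalytic spliceosome, was at 93.3, 81.8 and 129.7 in control, 124, 71.5 and 143 in KD and 41.3, 53.4 and 51.7 in OE. KD overlapped control, and OE lay below both, with -1.15 ± 0.29 against KD (limma, adjusted p = 0.00758). prpf38b, a related gene, was at 187, 149 and 196 in control, 129.98, 117 and 141 in KD and 110.2, 142 and 118 in OE and passed in no comparison.

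Of the 16 SR proteins tested, srsf4, srsf6a, srsf1a, srsf5b and srsf2a fell in KD. srsf4 was at 179, 219.8 and 252 in control, 52.6, 74.8 and 79.7 in KD and 112, 108 and 105 in OE. The 3 groups were apart, KD lowest, with a KD log2 fold change of -1.66 ± 0.31 (limma, adjusted p = 0.00295) that passed in every fit with 1 library left out, and -0.98 ± 0.22 in OE (adjusted p = 0.00488). OE was above KD by 0.68 ± 0.27, which did not pass (adjusted p = 0.0776) but did after loess normalization (1.02, adjusted p = 0.0152). After loess normalization the OE call of srsf4 against control was lost (-0.21, adjusted p = 0.501). srsf6a, of the same subfamily, was at 89.6, 116 and 298 in control, 57.7, 18.5 and 37.6 in KD and 41.3, 38.7 and 45.7 in OE, with control C far above the other controls. Its falls were -2.05 ± 0.44 in KD (limma, adjusted p = 0.00912) and -1.76 ± 0.36 in OE (adjusted p = 0.00267). SRSF6, a second gene of that name, was at 78.6, 65.4 and 74.1 in control, 64.99, 60.5 and 75.1 in KD and 47.4, 61.95 and 58.9 in OE and passed in neither.

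srsf1a, the zebrafish counterpart of the prototype SR protein and the SR gene with the most reads (not corrected for length), was at 464, 430.4 and 755 in control, 256, 150.5 and 289 in KD and 197, 253 and 216 in OE. It fell in both (limma, KD -1.25 ± 0.33, adjusted p = 0.0274; OE -1.26 ± 0.24, adjusted p = 0.00197), and OE against KD was -0.01 ± 0.26. srsf3b differed between the injected groups, at 116, 151 and 323 in control, 185, 85.7 and 171 in KD and 62.7, 70.5 and 64.9 in OE. KD overlapped control and OE was below all other libraries (limma, OE against KD -1.07 ± 0.29, adjusted p = 0.0115). srsf11 was at 329, 367 and 417 in control, 227, 129 and 212 in KD and 149, 147 and 117 in OE and passed in OE (-1.42 ± 0.22, adjusted p = 0.000775), with KD just outside the threshold (-1.003 ± 0.30, adjusted p = 0.0545).

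Paralogs of SR proteins were not all called alike. srsf5b was at 68.6, 137 and 124 in control, 37.97, 51.3 and 43.3 in KD and 49.7, 54.2 and 39.7 in OE, and was called in both (limma, KD -1.25 ± 0.34, adjusted p = 0.0319; OE -1.11 ± 0.29, adjusted p = 0.01). srsf5a, at 225, 213 and 337 in control, 180.4, 108 and 172 in KD and 149.9, 146 and 121 in OE, was called in OE and not in KD (-0.75 ± 0.31, adjusted p = 0.168). srsf2a was at 187, 137 and 310.3 in control, 121, 48.8 and 94.5 in KD and 56.6, 92.9 and 79.3 in OE and was called in both (KD -1.27 ± 0.37, OE -1.40 ± 0.29). srsf2b had few reads, at 10.97, 23.5 and 15.4 in control, 17.5, 2.52 and 4.55 in KD and 10.7, 17.04 and 8.41 in OE, and was called in neither. After loess normalization none of srsf5a, srsf5b, srsf2a and srsf2b was called in KD or OE (limma, adjusted p from 0.0851 to 0.841). Differences between paralogs were not tested, and reads that align to several places were not counted on genes, so near-identical copies lose reads.

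srsf5b and srsf2b were also the splicing factor genes that matched by name a 3'-UTR editing window listed by the study for early wild-type embryos. Genes named here in capitals may have a window under another name. Sites were A-to-G mismatches of RNA against parental DNA in 1 library each of embryos at 3.5 hpf, at 5.3 hpf and, earliest, with 16 cells. The srsf5b window (GRCz10 chr20:28963817-28968816, minus strand, 5000 bases) held 23 sites at the 16-cell stage, 27 at 3.5 hpf and 22 at 5.3 hpf. All sites had the change that A-to-G gives on the strand of the gene, and the window held no site with another change. The sites lay between bases 286 and 693 of the window in the direction of the gene, and 20 of 29 positions were listed at every stage. The highest frequency was 95.5% at 5.3 hpf, and single sites reached all reads at the earlier stages, with medians of 70.4% at 3.5 hpf and 70.5% at 5.3 hpf. By its methods, the study listed a changed base only from 20% of the RNA reads and with a minimum coverage of DNA and RNA. The medians are therefore over sites above this limit. A position that is not listed may be edited below the limit or lack coverage. Coverage of each site is not given, so the precision of a frequency is unknown and no test was made. Editing of these sites in control, KD or OE embryos was not analysed here.

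**Figure D5:**
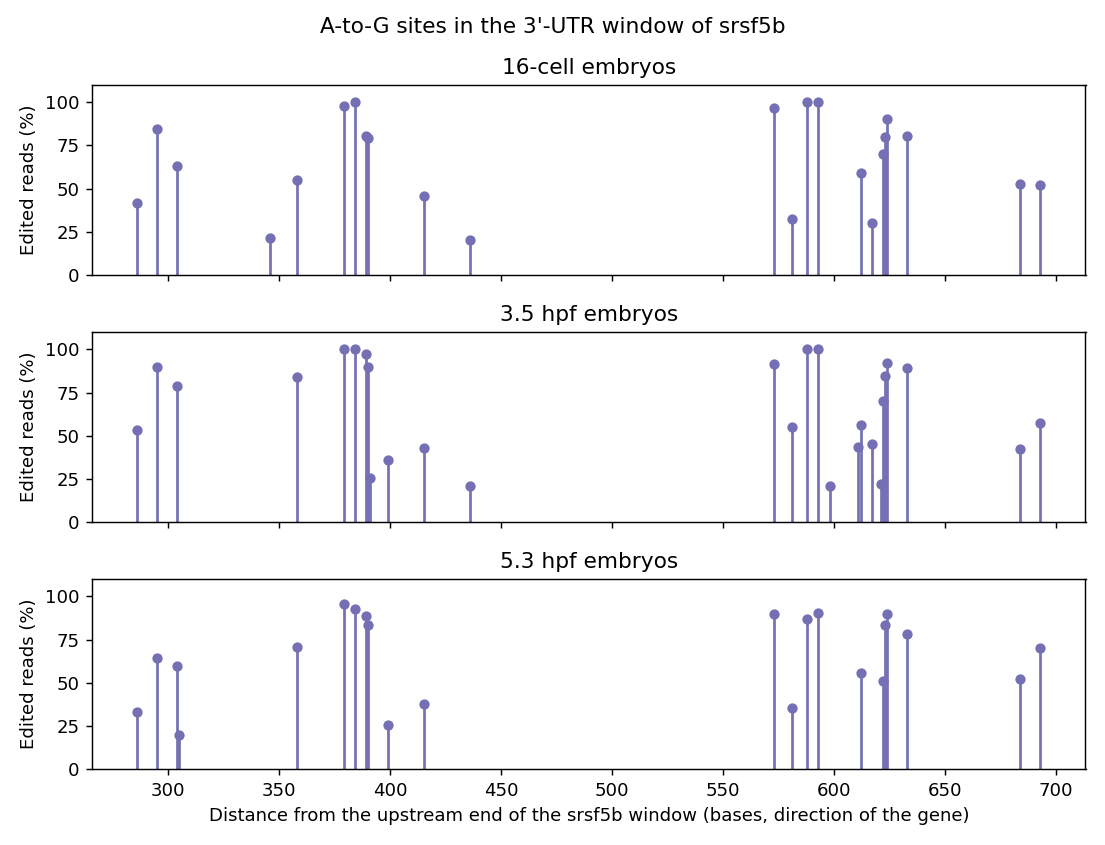
Percent of reads with the edited base (y axis) at each A-to-G site of the srsf5b window, by distance from its upstream end in bases (x axis), in 1 library for each of the 3 stages (top to bottom, earliest first). The sites fall into the same stretch at each stage, with 23, 27 and 22 sites.

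In the srsf2b window (GRCz10 chr3:60515149-60520148, minus strand, 5000 bases) sites were fewer. None was listed at the 16-cell stage, 5 at 3.5 hpf (median 40.0%) and 4 at 5.3 hpf (median 26.1%), of which 3 were on the strand of the gene. The srsf2b sites were spread over 1380 bases at 3.5 hpf, whereas those of srsf5b lay within 408 bases. They lay far into the window, between bases 3555 and 4934 in the direction of the gene at 3.5 hpf and 3555 and 4736 at 5.3 hpf. Whether these positions belong to the srsf2b transcript was not tested.

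Other spliceosome genes, a list of 119 genes outside the symbol rule (helicases, hnRNPs, exon junction proteins and partners of prpf19), were counted in the same fits. In KD 15 of 105 tested fell and none rose by limma (34 and 0 at an unadjusted p under 0.05, and 13 and 0 with an intensity trend), with a median of -0.43, against 4.67% of all genes called lower. In OE 51 of 103 fell and none rose (70 and 1 at an unadjusted p under 0.05, and 48 and 0 with an intensity trend), with a median of -0.76, against 18.3% of all genes. The all-gene counts at an unadjusted p and with an intensity trend are those given above for each comparison. Lower calls went with read level in all genes. At a mean of 30 to 100 it was 6.53% in KD and 29.5% in OE, and in the next range 13.4% and 61.6%. Calls in this list were not set against read level. After loess normalization 7 were called lower and 1 higher in KD, against 3.3% and 3.28% of all genes. Most OE calls were lost in that setting, such as EFTUD2 (limma, -0.28, adjusted p = 0.44). Few were kept, such as HNRNPL (-0.75, adjusted p = 0.0243). OE against KD called 10 lower and 4 higher of 105, against 9.2% and 6.46% of all genes. CWC27, a cyclophilin of the activated spliceosome, was among the latter, with -2.83 in KD (limma, adjusted p = 0.00407), -0.84 in OE (adjusted p = 0.0401) and 2.005 between them (adjusted p = 0.0146). hnrnpul1 fell, with -2.28 in KD (limma, adjusted p = 0.000417) and -1.42 in OE (adjusted p = 0.000762). sfpq, a splicing factor of paraspeckles, passed in OE (-1.18) and stood at -1.55 in OE against KD (limma, adjusted p = 7.05e-05). These 3 were chosen for their size after the values were seen.

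Some genes that mark tissues and stages also differed between the groups. The summed level of 5 somite and muscle genes was 130 to 171 normalized reads in control, 20.4 to 31.1 in KD and 72.0 to 85.3 in OE, and that of the pluripotency genes pou5f3 and nanog was 41.2 to 47.0 in control, 158 to 268 in KD and 21.6 to 29.1 in OE. Both pluripotency genes were called higher in KD. Sums of the 3 epidermal genes were 1524 to 2887 in control, 1572 to 2514 in KD and 751 to 999 in OE, those of the 4 neural genes were 141 to 172, 66.4 to 123 and 81.9 to 105, those of the 4 maternal and germ plasm genes were 4.63 to 21.9, 31.9 to 45.4 and 35.2 to 48.1, and those of the 2 blood genes were 7.72 to 28.6, 11.4 to 23.5 and 21.7 to 34.8. No marker was at 0 throughout a group. The part of tissue make-up or developmental stage in the levels of the splicing factor genes was not tested.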

How the data were processed

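Whole embryos at 12 hpf were sequenced after rRNA depletion, in 3 libraries each of control, Adar KD and Adar OE, of the 32 samples of the series. Per the labels and methods, the authors aligned reads to GRCz10 with STAR 2.7.7a and SAMtools 1.11, counted them on genes with HTSeq 0.11.2 and compared groups with DESeq2 in R 3.6.3. The deposited tables hold, for each pair of groups, the mean normalized count over 6 libraries, a signal from the authors' size factors, and 5 columns of the authors' own comparison (log2 fold change, its standard error, a Wald statistic, a p-value and an adjusted p-value), which were not used. The authors also deposited the sites of RNA and DNA mismatches at 3 earlier stages, each with the fraction of reads that carry the changed base, printed here as a percent.

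A mean normalized count is the sum of each library's whole reads times a fixed weight, and each library enters a pair of tables with the same weight. The weights and the reads of the 9 libraries were solved from these sums by trying all combinations. This gave 1 solution for 32490 genes (99.9%), with a largest relative deviation of 7.05e-15, and size factors within 0.159% of a median of ratios of the recovered reads. The other 29 genes, none a splicing factor gene, were left out. The method was tested on simulated data. Library totals on genes were 529553 to 956733.

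The recovered reads, scaled by the authors' size factors, were tested with limma 3.58.1 (voom weights) in R 4.3.3 between pairs of groups, for genes with a mean of at least 10 normalized reads, with Benjamini-Hochberg adjustment over all genes tested and a threshold of 0.05. A count model was not used, since the deposited values are not counts. Summaries were made in Python 3.11.15 with numpy 2.4.6, pandas 2.3.3, scipy 1.17.1 and matplotlib 3.10.9. Alternatives were other scalings, filters, fits and thresholds, and each library left out.

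Gene IDs were named from a table of IDs and symbols, ignoring case, and from the study's pairing of IDs and symbols for 8 IDs; names in capitals are IDs that share a symbol or lack a zebrafish one. Genes named in the text are, in each group and comparison, the 2 called with the largest fall and the 2 with the largest rise, the gene with the most reads of each group, the genes with listed editing windows, pairs that differ in a final a or b and in their call, and adar; others named were chosen after their values were seen. snrpa and snrpb, which encode different proteins, form such a pair by letter only. The genes and lists were chosen with earlier results of these data known. No sequence of these genes or of the morpholino is printed.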

Additional observations from a re-analysis of the deposited data

How the results depend on the processing

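The scaling moved all genes. The median log2 fold change of all genes in OE against control was -0.14 with the authors' size factors, 0.25 with scaling by total reads and -0.55 with scaling by the upper quartile, while the median of the splicing factor genes relative to it was -0.96, -1.04 and -0.95. In KD this relative median was -0.71, -0.71 and -0.72. A change of scaling shifts all genes of a comparison by nearly the same amount. The relative median could therefore hardly move, apart from the filter on low counts, and its constancy is no check of the result. Loess normalization can move it, and the OE median in that setting is given above. In KD the 14 genes called became 7 with scaling by total reads (6 lower and prpf18 higher), 9 lower with prpf18 higher after loess normalization, and 3 at an adjusted p under 0.01, and the count was between 3 and 9 with 1 library left out. In OE the 49 became 32 with total scaling, 12 after loess normalization and 29 at 0.01, and lay between 30 and 48 with 1 library left out. In OE against KD the 9 became 5 with a minimum mean of 50 and 3 at 0.01, and lay between 2 and 21 with 1 library left out, where the 21, without KD B, were 20 lower and srsf4 higher. Counts in both directions together stayed within 1.5 times these under the other alternatives, and the causes of the moves were not tested. With 1 library left out, a group of 2 remained and the spread was pooled over both groups by limma. The number of all genes called lower then lay between 191 and 382 in KD, 909 and 2081 in OE, and 431 and 2112 in OE against KD. In every such fit srsf4 and sf3a1 stayed lower in KD, sf3a3 and prpf18 stayed lower in OE than in KD, and 27 genes stayed lower in OE than in control. The OE log2 fold change of lsm14ab changed sign after loess normalization, to 0.0489. Counting srsf2b sites only from a frequency of 0.3 left 3 at 3.5 hpf and 1 at 5.3 hpf. No paired analysis was possible because the recovered library values carry no replicate number.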
